A study of Mus musculus with 4 samples.

Results

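The 88 genes described here are those of the cytosolic ribosomal proteins and their paralogs, measured in testis cells of the mouse. They were taken by name from a table of 18419 genes: every symbol that starts with Rps or Rpl and a digit, together with Rplp0, Rplp1, Rplp2 and Rpsa, leaving out symbols that name a pseudogene with -ps and the Rps6k kinases. GENCODE annotates 86 of them as protein-coding and the retrocopies Rpl37rt and Rpl32l as processed pseudogenes. Of the 88 genes, 34 belong to the small subunit by name and 54 to the large one. The core set held 77 of them, and the other 11 are paralogs, retrocopies or, for Rps19bp1, a gene that is no ribosomal protein. Rps4l was not in the table, and the ribosomal proteins Fau and Rack1 lie outside the naming rule and are given separately.

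Single testis cells of male ICR mice, an outbred stock, were captured with droplet 3′ RNA sequencing, in which a unique molecular identifier (UMI) tags each captured transcript. There were 4 groups with 1 library each: A0, control mice given water, A10, mice given alginate oligosaccharides (AOS, short sugar chains made from brown seaweed alginate) at 10 mg/kg by mouth, B0, mice given busulfan alone, and BA10, mice given busulfan and then AOS at 10 mg/kg. Busulfan, an alkylating drug that depletes male germ cells, was given once, at weaning age, and AOS or water followed from the next day. The testes of several mice were pooled for each library, so animals cannot be told apart, no test between groups was possible, and every interval below covers counting error only.

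A0 held 8941 cells, A10 9682, B0 4659 and BA10 3778, with median depths of 12685, 10948, 4214 and 17989 UMIs per cell. No cell of A0 had fewer than 7687 UMIs, while the shallowest cells had 6716 UMIs in A10, 2985 in B0 and 9013 in BA10, so each library began at its own limit, and only 448 cells of B0 reached that of BA10. The libraries also held different cells. Clustered without the 88 genes, 3634 cells of A0 and 4055 of A10 were spermatocyte-like (SPC-like) and 5145 and 5492 were spermatid-like (ST-like). The line between these 2 names was thin. A cluster with 707 of the SPC-like cells of A0 and 979 of those of A10 scored 0.194 for spermatocyte and 0.193 for spermatid markers. In B0, 3005 cells were Leydig-like (the steroid-making cells between the tubules), 229 spermatogonia-like (SPG-like), 230 SPC-like, 67 macrophage-like, 198 Sertoli-like and 52 endothelial-like. In BA10, 3293 cells were SPC-like, 154 ST-like and 119 Leydig-like. Between 127 and 872 cells per library stayed unnamed, and 374 of 26683 distinct barcodes occurred in more than 1 library. A ratio between whole libraries therefore sets different mixtures of cells against each other, and fewer cells of a type and less RNA per cell cannot be told apart in it.

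A ribosome joins a small and a large subunit, and its proteins are made in near-equal numbers in every growing cell. Of the core genes, Rpl10, Rpl36a, Rpl39 and Rps4x lie on the X chromosome. During male meiosis the X and Y chromosomes are silenced, and autosomal copies of some X-linked genes, many of them retrocopies, are known to be used in germ cells in their place. Rpl10l stands in for Rpl10 in this way, and Rpl39l is a testis paralog of Rpl39. Many ribosomal protein genes begin transcription inside a run of C and T, the terminal oligopyrimidine (TOP) tract, which ties their translation to nutrient signals.

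The starts of these 6 genes are shown because much of what follows turns on the X-linked genes and the autosomal paralogs of Rpl10 and Rpl39. Each line has 80 bases on the gene's own strand around the RefSeq start of transcription (GRCm38.p6), and the capitals mark the longest run of C or T between 10 bases before and 20 bases after that start.
Rpl10, chrX:74270756-74270835, plus strand: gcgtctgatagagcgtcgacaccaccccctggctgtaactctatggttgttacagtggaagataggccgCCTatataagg
Rpl36a, chrX:134585594-134585673, plus strand: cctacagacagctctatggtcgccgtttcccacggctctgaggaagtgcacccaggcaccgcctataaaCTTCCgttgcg
Rpl39, chrX:37085203-37085282, minus strand: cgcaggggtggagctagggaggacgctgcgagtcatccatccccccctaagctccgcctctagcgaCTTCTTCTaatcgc
Rps4x, chrX:102189372-102189451, minus strand: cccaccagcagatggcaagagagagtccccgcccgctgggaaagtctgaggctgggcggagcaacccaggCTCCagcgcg
Rpl10l, chr12:66284382-66284461, minus strand: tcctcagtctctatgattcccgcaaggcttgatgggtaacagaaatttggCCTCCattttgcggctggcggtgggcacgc
Rpl39l, chr16:10170168-10170247, plus strand: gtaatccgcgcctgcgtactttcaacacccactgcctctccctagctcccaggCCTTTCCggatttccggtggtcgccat
The run was 8 bases long in Rpl39, 7 in Rpl39l, 5 in Rpl36a and in Rpl10l, 4 in Rps4x and 3 in Rpl10. RefSeq gave a promoter for 68 of the 88 genes, and 22 of them (32.4%) held a run of at least 8 such bases in that window, against 11.2% of all 32851 promoters. The letters CTTTCC were present in 10 of the 68 (14.7%) and in 1.28% of all promoters, while their reverse complement GGAAAG was present in 0 of the 68 and in 1.29% of all. The RefSeq start of Rpl39 lies 180 bases from the GENCODE one, and a match of letters is a description of this window only.

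The 88 genes took a larger share of the UMIs in the libraries from busulfan-treated mice. They made up 4.64% of the UMIs of A0, 5.07% for A10, 11.7% for B0 (95% Clopper-Pearson interval 11.7–11.8) and 7.40% for BA10 (7.40–7.41). B0 was thus highest and A0 lowest, and the order held over cells, with medians of 4.30%, 4.76%, 12.6% and 6.50% of a cell's UMIs. The quartiles over cells were 3.88 and 4.82% for A0, 4.26 and 5.22% for A10, 11.0 and 14.6% for B0 and 6.11 and 8.21% for BA10. The small subunit gave 1.91%, 2.09%, 4.99% and 2.97% of the UMIs of A0, A10, B0 and BA10 and the large subunit 2.73%, 2.98%, 6.76% and 4.43%. The 77 genes of the mitochondrial ribosome, which the rule leaves out, took 0.604%, 0.625%, 0.893% and 0.927%. In cells that reached the limit of 9013 UMIs the 88 genes took 4.65% and 5.11% without busulfan (A0 and A10) and 8.28% and 7.40% with it (B0 and BA10).

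The share also differed between the cell classes of a library. SPG-like cells of B0 had 19.6% of their UMIs in these genes, endothelial-like cells 20.1%, macrophage-like cells 13.5%, Leydig-like cells 13.1% and Sertoli-like cells 10.1%. The 872 unnamed cells of B0 stood lower, at 8.51%, and held 7982259 of the 25323535 UMIs of that library. In SPC-like cells the share was 5.47% and 5.81% for A0 and A10 but 12.2% and 7.39% for B0 and BA10, and in ST-like cells it was 3.93% in A0, 4.35% in A10 and 5.33% in BA10. Leydig-like cells of BA10 stood at 9.54%. SPC-like cells of the 4 libraries were not the same cells: those of B0 lay mostly in 1 cluster led by Meiob, a meiotic recombination gene, those of BA10 in 3 other clusters, and those of A0 and A10 in the rest. A further cluster, with 556 cells of B0, 187 of BA10, 17 of A0 and 11 of A10, scored highest for spermatocyte markers but was led by connective tissue genes such as Dcn and Gsn and stayed unnamed. With clusters drawn from 1000 variable genes or at a finer resolution, the share in SPC-like cells of B0 was 8.60% and 8.80%.

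**Figure D1:**
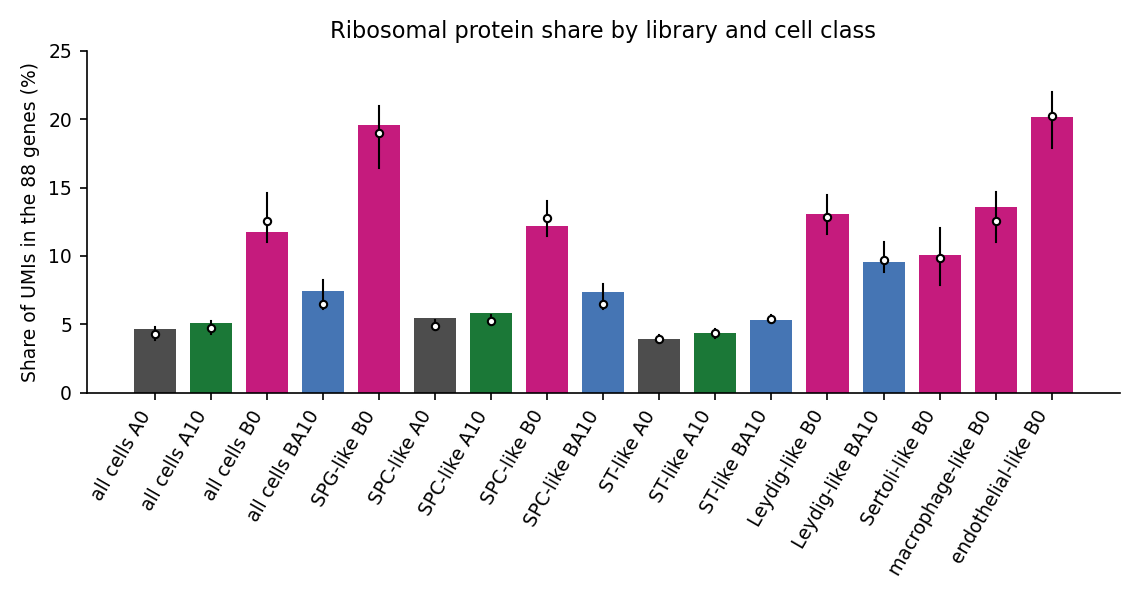
Share of UMIs taken by the 88 ribosomal protein genes (percent, vertical axis from 0) in each library and named cell class with at least 50 cells; bars are the share over summed UMIs, black lines the quartiles over cells and open circles the median cell. Shares in the named classes of B0 run from 10.1% in Sertoli-like cells to 20.1% in endothelial-like cells, while SPC-like and ST-like cells of A0 and A10 sit between 3.93% and 5.81%. The 872 unnamed cells of B0, which are not drawn, stand at 8.51%.

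Levels are given as UMIs per 1000000 UMIs of a library or class (CPM). A 3′ read is counted once per transcript, so the values are not scaled by transcript length. The median core gene stood at 497 and 518 CPM in A0 and A10 and at 1200 and 828 CPM in B0 and BA10. The 5 highest genes of A0 were Rpl13, Rpl41, Rplp0, Rps14 and Rps7, which together held 19.6% of the UMIs of the 88 genes. A10 had Rpl13, Rpl41, Rps14, Rplp0 and Rps20 (19.3%), and BA10 had Rpl13, Rpl41, Rplp0, Rps14 and Rpl32 (18.7%). In B0 the order was Rpl41, Rps29, Rps27, Rps14 and Rpl13 (18.3%), so that Rpl41, Rps29 and Rps27, whose products are among the smallest ribosomal proteins, led. Across the 77 core genes the levels of A0 ranked much as those of A10 (Spearman's rho 0.988) and BA10 (0.975) and less like those of B0 (0.737); these are descriptions over genes of single libraries. The lowest core genes were Rpl29, at 1.56, 1.88, 6.59 and 4.30 CPM in A0, A10, B0 and BA10, and, without the X-linked genes, Rps6, at 20.6, 23.9, 103 and 42.6 CPM.

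How much of a level reached the table may depend on how unique the end of the transcript is, since the counting tool drops reads that match more than 1 of its genes. Sharing was taken here over all GENCODE genes, which need not be the genes counted, and loss of reads was not tested. Within the last 300 bases, 33 of the 88 genes shared over 50% of their 98-base words with another annotated gene and 34 shared none. In A0 the 29 core genes of the first kind had a median of 400.4 CPM and the 27 of the second kind 570 CPM. Single genes varied: Rps27, among the highest genes of B0, shared 100% of these words, and Rpl29, the lowest core gene, 11.8%. Rpl10 and Rpl36a shared 100%, Rps4x 15.8%, and Rpl39, Rpl10l and Rpl39l 0%. The levels of Rpl10 and Rpl36a, and of Rps6 (79.3% shared), are therefore uncertain.

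The 4 X-linked genes were nearly absent from the libraries without busulfan. Rpl10, a large-subunit protein needed for the late steps of subunit maturation, stood at 15.3 and 14.7 CPM in A0 and A10 and at 1246 and 72.1 CPM in B0 and BA10. Rpl39, the small protein of the exit tunnel, stood at 3.34, 4.21, 1023 and 30.6 CPM in the same order. Rps4x, a small-subunit protein, stood at 2.52, 2.23, 625 and 34.7 CPM. Rpl36a, of the large subunit, stood at 2.84, 3.19, 629 and 25.1 CPM. Each of the 4 was lowest in A0 or A10 and highest in B0, with BA10 between. Summed, they held 24.0 and 24.3 CPM in A0 and A10 but 3523 and 163 CPM in B0 and BA10, and 415 CPM in the 448 cells of B0 at or above 9013 UMIs, the common UMI limit. Their log2 ratios (with 1 CPM added) for B0 over A0 were 7.88 for Rpl39, 7.48 for Rps4x, 7.36 for Rpl36a and 6.25 for Rpl10, the 4 highest of the 85 genes that reached 10 CPM in the mean of both libraries. For BA10 over B0 they were -5.02 for Rpl39, -4.59 for Rpl36a, -4.13 for Rps4x and -4.09 for Rpl10, the 4 lowest, and for BA10 over A0 they were 3.34 for Rps4x, 2.87 for Rpl39, 2.77 for Rpl36a and 2.16 for Rpl10, again the 4 highest. Their median went from 7.42 to 4.47 for B0 over A0 and from -4.36 to -1.36 for BA10 over B0 at that limit. B0 over A0 and BA10 over A0 share the A0 library, and B0 over A0 and BA10 over B0 share the B0 library.

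Within cell classes the 4 genes were low in meiotic and later germ cells and high in SPG-like and somatic cells. Their summed level was 12.1 CPM in SPC-like cells of A0 and 14.0 CPM in those of A10, and 25.1 and 24.9 CPM in ST-like cells. It was 2672 CPM in SPG-like cells of B0, 5509 CPM in Leydig-like cells, 2365 CPM in Sertoli-like cells, 4756 CPM in the macrophage-like cluster and 7944 CPM in the endothelial-like cluster of the same library. The sum of SPG-like cells was thus within the somatic range, with Rpl36a (1160 CPM) above Rpl10 (710 CPM), Rpl39 (510 CPM) and Rps4x (291 CPM). Taken singly, Rpl39 and Rps4x were below every named somatic class of B0, of which Sertoli-like cells were lowest (889 and 465 CPM). Leydig-like cells had Rpl10 (1996 CPM) and Rpl39 (1620 CPM) above Rps4x (964 CPM) and Rpl36a (929 CPM). The summed level of every ST-like cluster lay between 17.2 and 129 CPM and that of every SPC-like cluster between 7.34 and 652 CPM. A pair of unnamed clusters of A0 and A10 led by Stra8, Rhox13 and Prss50, genes of cells at the entry to meiosis, held 438 and 396 CPM.

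SPC-like cells of the busulfan libraries had more X-linked transcripts than those of A0, and more Leydig, Sertoli and macrophage transcripts with them, but fewer spermatid transcripts. The summed level was 440 CPM in B0 and 77.3 CPM in BA10, against 12.1 CPM in A0. In SPC-like cells of A0, A10, B0 and BA10 the 6 Leydig markers summed to 3.91, 3.26, 420.03 and 124 CPM, the 6 Sertoli markers to 4.67, 6.53, 183 and 35.5 CPM and the 7 macrophage markers to 3.05, 3.33, 95.6 and 22.9 CPM. The 8 spermatid markers summed to 6630, 8602, 38.9 and 270 CPM in the same order. All of these markers had UMIs in each library. Insl3, the Leydig hormone gene, had a UMI in 0.881% of SPC-like cells of A0, 64.3% of those of B0 and 59.4% of those of BA10. Per UMI of Insl3, Leydig-like cells of B0 held 0.168 UMIs of Rpl10, 0.0784 of Rpl36a, 0.137 of Rpl39 and 0.0814 of Rps4x, whereas SPC-like cells of B0 held 0.872, 0.512, 0.896 and 0.439 and those of BA10 0.796, 0.322, 0.378 and 0.349. The part of RNA from other cells in the X-linked levels of these SPC-like cells was not tested.

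**Figure D2:**
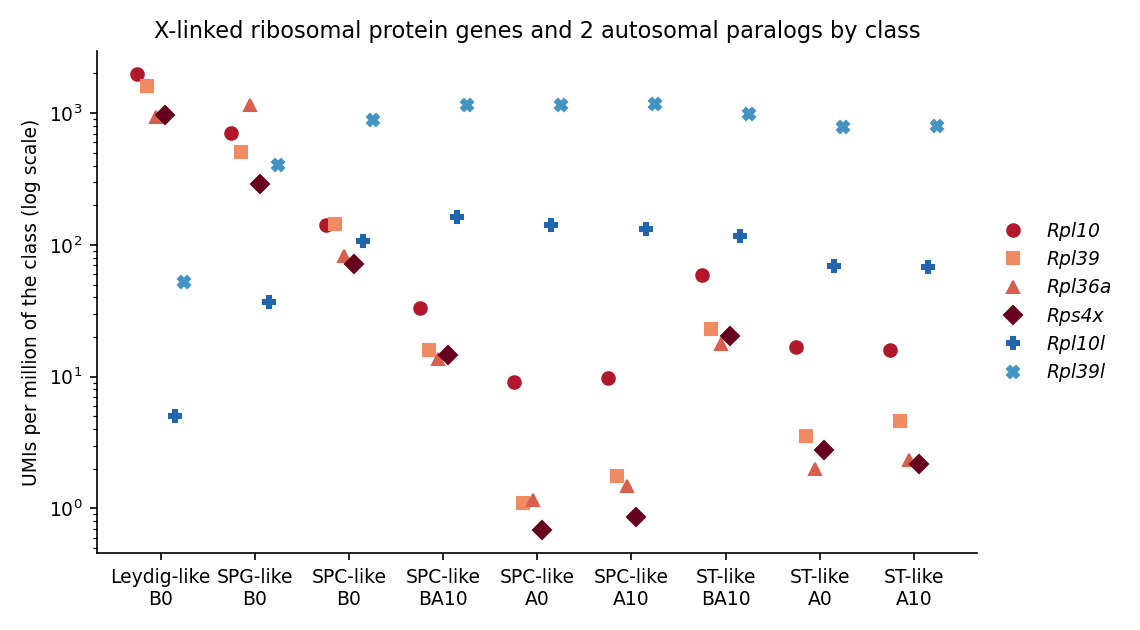
Levels of the X-linked genes Rpl10, Rpl36a, Rpl39 and Rps4x and of the autosomal paralogs Rpl10l and Rpl39l (UMIs per 1000000 of the class, log axis) in Leydig-like cells of B0 and in germ cell classes with at least 50 cells of a library. Rpl10 runs from 1996 CPM in Leydig-like cells of B0 to 9.17 CPM in SPC-like cells of A0, while Rpl39l runs the other way, from 52.3 to 1156 CPM.

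Over all cells the autosomal paralogs moved against the X-linked genes between B0 and the other libraries, but like them were higher in BA10 than in A0. Rpl10l, a single-exon gene on chromosome 12, stood at 100.1 and 98.3 CPM in A0 and A10 and at 59.8 and 159 CPM in B0 and BA10. Rpl39l, on chromosome 16, stood at 944, 971, 473 and 1130 CPM. Both were lowest in B0 and highest in BA10. Their log2 ratios for B0 over A0 were -0.99 (Rpl39l) and -0.73 (Rpl10l), the 2 lowest of the tested genes, and for BA10 over B0 1.39 (Rpl10l) and 1.25 (Rpl39l), the 2 highest. In cells at the limit of 9013 UMIs, however, both were higher in B0 than in A0, with log2 ratios of 0.64 (Rpl10l) and 0.39 (Rpl39l), and BA10 and B0 differed by 0.00 and -0.14. The direction of both paralogs against A0 thus turned at this limit, at which depth and the cell classes taken from B0 changed together and cannot be told apart.

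Set against its parent, each paralog gave most of the transcripts in SPC-like and ST-like cells of A0, A10 and BA10, while in SPC-like cells of B0 this held for Rpl39l but turned with the clustering for Rpl10l, which had 43.3% there, 57.2% with cells clustered on 1000 variable genes and 58.0% at a clustering resolution of 2. As the end of Rpl10 is shared with other genes and that of Rpl10l is not, reads dropped from the parent alone would make each share of Rpl10l read too high, and the intervals do not cover this. Rpl10l held 86.7% of the UMIs of Rpl10 and Rpl10l together for A0 (95% interval 86.2–87.2), 87.0% for A10 (86.5–87.5), 4.58% for B0 and 68.8% for BA10. Rpl39l held 99.6% of the UMIs of Rpl39 and Rpl39l for A0 and also 99.6% for A10, but 31.6% for B0 and 97.4% for BA10. In the cells of B0 at the common UMI limit the shares were 51.8% (49.6–53.9) and 91.8%. Rpl39l then gave the larger part of its pair, while Rpl10l and Rpl10 gave near-equal parts (1087 and 1012 UMIs). In SPC-like cells the share of Rpl10l was 93.9% and 93.1% for A0 and A10, 43.3% (38.9–47.7) for B0 and 82.9% for BA10, and that of Rpl39l was 99.9%, 99.8%, 86.0% (84.4–87.4) and 98.6%. ST-like cells of A0, A10 and BA10 had 80.3%, 81.1% and 66.5% for Rpl10l and 99.5%, 99.4% and 97.7% for Rpl39l. In B0 the shares were 4.90% and 44.3% in SPG-like cells, 2.08% and 6.62% in Sertoli-like cells, 0.251% and 3.13% in Leydig-like cells, 1.32% and 5.49% in macrophage-like cells and 0.446% and 0.525% in endothelial-like cells. SPG-like cells thus held 406 CPM of Rpl39l beside 510 CPM of Rpl39, but only 36.6 CPM of Rpl10l beside 710 CPM of Rpl10. Leydig-like cells of BA10 had 61.7% for Rpl39l, and in the same cells Prm1, a spermatid gene, stood at 365 CPM against 3.86 CPM in Leydig-like cells of B0; the part of germ cell RNA in that share was not tested.

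Germ cells of all libraries were ordered by diffusion pseudotime, built without the 88 genes, and divided into 5 bins of equal size, starting from the SPG-like cells. No cell of A0 or A10 was SPG-like, and their unnamed clusters led by Stra8 and Rhox13 were left out of the order. The first bin of A0 (296 of 8779 germ cells) and A10 (292 of 9547) therefore does not show the start of spermatogenesis. In A0 the share of Rpl10l was 93.1%, 94.7%, 90.5%, 81.9% and 56.1% from the first bin to the last, and in A10 it was 93.0%, 94.5%, 88.9%, 82.5% and 57.9%. The interval of the last bin was 52.6–59.4 in A0 and 53.9–61.7 in A10. Rpl10l itself stood at 109, 136, 151, 85.2 and 15.9 CPM over the bins of A0, while Rpl10 stayed between 7.63 and 18.9 CPM, so the lower share in the last bin came with a lower level of the paralog. Rpl39l stood at 1024, 1104, 1285, 950 and 352 CPM and Rpl39 between 0.961 and 5.37 CPM, which gave shares of 99.7%, 99.9%, 99.9%, 99.7% and 98.5%. Over the same bins the share of UMIs in all 88 genes was 9.04%, 5.52%, 4.48%, 3.99% and 3.70%. B0 (460 of 465 germ cells) and BA10 (3402 of 3459) filled only the first bin with at least 50 cells. Of these germ cells 229 were SPG-like in B0 and 154 ST-like in BA10, so the bin held different stages in each library and they are not matched in it. There the share of Rpl10l was 20.5% (18.3–22.9) in B0 and 82.1% in BA10, and that of Rpl39l 73.5% and 98.6%.

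**Figure D3:**
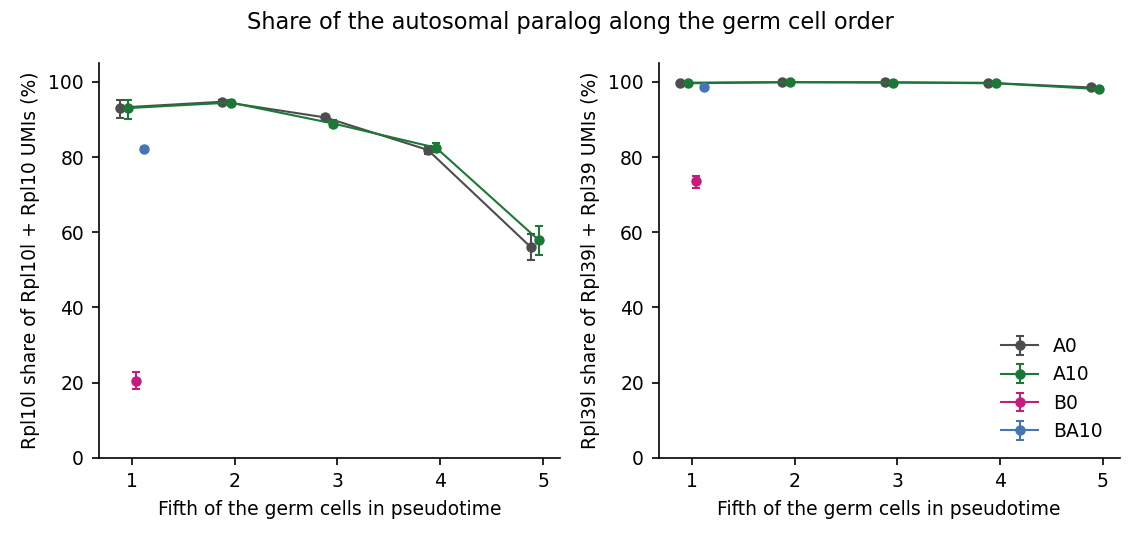
Share of Rpl10l in Rpl10 and Rpl10l UMIs, and of Rpl39l in Rpl39 and Rpl39l UMIs (percent), over 5 bins of germ cell order for each library with at least 50 cells in a bin; error bars are 95% Clopper-Pearson intervals. In A0 and A10 the share of Rpl10l is lowest in the last bin (56.1% and 57.9%), and that of Rpl39l stays at or above 98.1%.

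Of the other paralogs, Rpl36al was the most abundant in A0, A10 and BA10 and Rps27l in B0. Rpl36al, an autosomal copy of Rpl36a, stood at 414 and 483 CPM in A0 and A10 and at 794 and 674 CPM in B0 and BA10, far above its X-linked parent in A0 and A10 and close to it in B0 (629 CPM). It shares 63.1% of its end words with other genes. Rpl22l1 stood at 304, 393, 592 and 392 CPM and its parent Rpl22, which binds RNA outside the ribosome too, at 103, 121, 406 and 161 CPM. Among named classes with at least 50 cells in a library, Rpl22 (1281 CPM) exceeded Rpl22l1 (536 CPM) most in SPG-like cells of B0. Rps27l, known as a target of p53, stood at 212, 246, 1144 and 417 CPM beside 702, 1001, 4020 and 1453 CPM of Rps27. The retrocopies Rps27rt and Rpl37rt stood at 66.9, 84.4, 449 and 103 CPM and at 76.1, 90.6, 320 and 92.5 CPM. They share 85.7% and 61.1% of their end words with other genes, their parents among them, so reads of the copies may have been dropped. Of the parents, Rps27 shares 100% of its own end words and Rpl37 0%. Rpl7l1, a factor of subunit assembly, stood at 25.4, 26.1, 49.6 and 40.4 CPM beside 344, 309, 523 and 459 CPM of Rpl7. Rpl3l, the muscle form of Rpl3, stood at 0.186, 0.153, 1.58 and 0.460 CPM and Rpl32l at 0.232, 0.292, 1.18 and 0.372 CPM, the lowest of the paralogs; Rpl3 stood at 225, 224, 745 and 384 CPM. Rps19bp1, which is no ribosomal protein but binds Rps19, stood at 28.7, 33.1, 81.2 and 82.2 CPM.

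The proteins of the stalk, which recruits elongation factors, did not move as 1 block. Rplp0, the base of the stalk, stood at 1709 and 1684 CPM in A0 and A10 and at 2241 and 2625 CPM in B0 and BA10, highest in BA10. Its partners Rplp1, at 611, 627, 1806 and 1005 CPM, and Rplp2, at 386, 429, 1509 and 633 CPM, were highest in B0. In SPC-like cells of A0 Rplp0 stood at 2048 CPM, Rplp1 at 691 and Rplp2 at 433, while SPG-like cells of B0 had 4275, 3896 and 4215 CPM. Rpsa, the small-subunit protein also known as the laminin receptor, stood at 256, 238, 562 and 312 CPM.

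Busulfan alone was compared with control over all cells. Of the 85 genes tested, 58 were at least 2-fold higher in B0, beside 37.5% of all 8688 genes tested, and 0 were at least 2-fold lower, beside 24.5%; 81 had a log2 ratio above 0, beside 54.2%. The median log2 ratio was 1.46 over these genes and 0.23 over all genes. For the 72 autosomal core genes it was 1.43, with a range from -0.28 to 3.25. Rps20 (1362 CPM in A0 and 1118 in B0, log2 ratio -0.28) and Rps7 (1494 and 1236 CPM, -0.27) were the core genes that were lower in B0. The 76 tested genes of the mitochondrial ribosome had a median of 0.63, with 33 at least 2-fold higher and 2 lower. In cells at the limit of 9013 UMIs, which kept 448 of 4659 cells of B0 and took Insl3, the Leydig cell gene, from 6638 to 355 CPM there, 28 of 85 genes were at least 2-fold higher, beside 12.7% of all genes, all 85 had a log2 ratio above 0, beside 64.3%, and the median was 0.68.

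In SPC-like cells the median for B0 over A0 was 1.12, with 51 of 85 genes at least 2-fold higher, beside 29.0% of all genes, and 82 above 0, beside 55.1%. The highest were Rpl39 (6.11), Rps4x (5.42), Rpl36a (5.27) and Rpl10 (3.80) and the lowest Rpl10l (-0.39), Rpl39l (-0.38), Rps7 (-0.02) and Rpl22l1 (0.16). The other-cell markers given above moved with this comparison, and another cluster held the B0 cells.

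**Figure D4:**
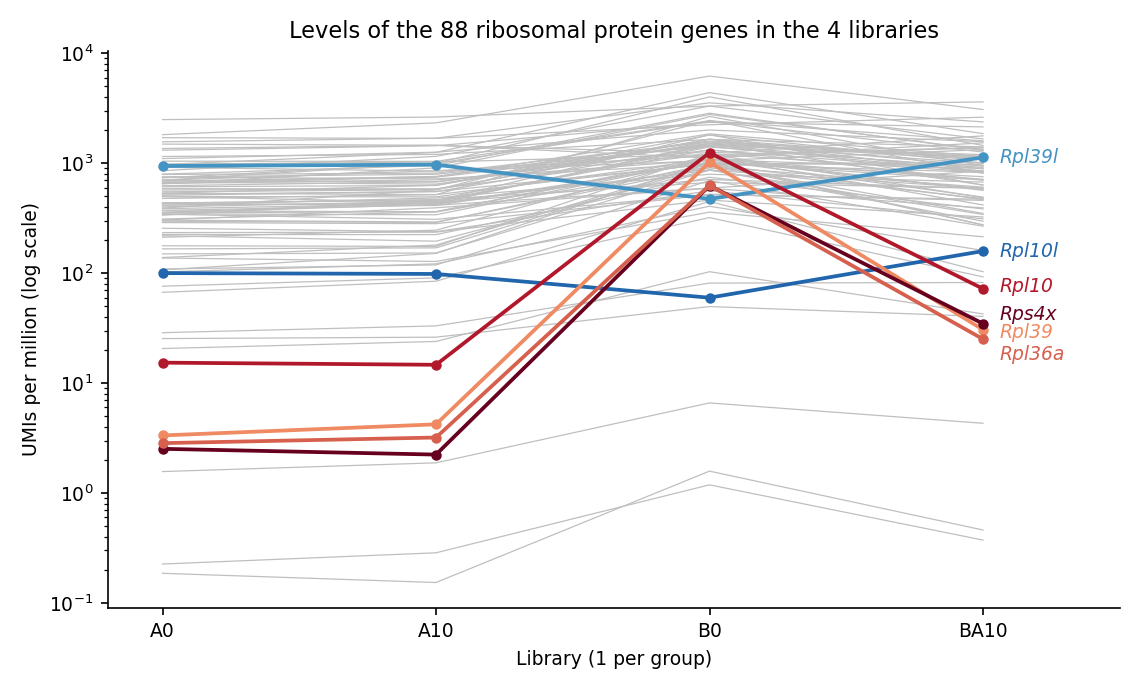
Level of each of the 88 genes (UMIs per 1000000, log axis) in the libraries A0, A10, B0 and BA10; each line is 1 gene, with the X-linked genes in reds and oranges and Rpl10l and Rpl39l in blues. The X-linked genes stand at 625 to 1246 CPM in B0 against 2.52 to 15.3 CPM in A0, and Rpl10l and Rpl39l are lowest in B0.

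AOS after busulfan was compared with busulfan alone. Of 85 genes, 2 (Rpl10l and Rpl39l) were at least 2-fold higher in BA10 than in B0, beside 20.5% of all 8483 genes tested, and 29 were at least 2-fold lower, beside 34.1%. In all, 12 of the 85 were above 0, beside 46.7%, and the median was -0.62, and -0.16 over all genes. After the paralogs, the highest were Rps7 (1236 CPM in B0 and 1775 in BA10, 0.52) and Rpl4 (596 and 848 CPM, 0.51). At the common UMI limit the median was -0.04, with 0 genes at least 2-fold higher, beside 1.13% of all, and 8 lower, beside 12.0%, so most of the difference between the libraries was not seen in the deep cells. That limit kept all 3778 cells of BA10 but only 448 of B0. Depth and the cell classes taken from B0 changed together at it and cannot be told apart. In SPC-like cells the median was -0.73, and 26 of 85 were at least 2-fold lower, beside 29.5% of all genes. The X-linked genes had a median of -2.37 there. Of the 230 SPC-like cells of B0, 182 lay in the cluster led by Meiob, which held 3 cells of BA10. The share of UMIs in the ribosomal protein genes in SPC-like cells of B0 also moved with the clustering. It was 12.2% as reported, 8.60% with 1000 variable genes and 8.80% at resolution 2, beside 7.39% in BA10 as reported. The ratio in SPC-like cells under these other clusterings was not tested. Leydig-like cells of the 2 libraries lay in different clusters, 2970 of 3005 of those of B0 in 1 with a median of 4058 UMIs per cell and 74 of 119 of those of BA10 in another with a median of 12451. The median log2 ratio was -0.44, with 11 at least 2-fold lower, beside 21.4%, and Rpl10l (4.12) and Rpl39l (3.82) at least 2-fold higher, beside 26.2%.

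BA10 was higher than A0 for all 85 genes tested, beside 63.3% of the 6915 genes tested. Of these, 17 were at least 2-fold higher, beside 13.8%, and 0 at least 2-fold lower, beside 19.3%. The median was 0.70, against 0.33 over all genes and 0.82 over the mitochondrial ribosome, and with the ratios centred on that of all genes 7 were at least 2-fold higher, beside 4.35%. The lowest ratios were those of Rps20 (0.17), Rps7 (0.25), Rpl39l (0.26) and Rpl37rt (0.28). In SPC-like cells the median was 0.42, Rpl10 (1.76) was the only gene at least 2-fold higher among those tested, beside 1.37% of all genes, and 80 of 82 were above 0, beside 48.6%. The other X-linked genes did not reach 10 CPM in the mean of both libraries there and stood at 1.11 and 15.9 CPM (Rpl39), 0.682 and 14.6 CPM (Rps4x) and 1.17 and 13.5 CPM (Rpl36a) in A0 and BA10. In ST-like cells the median was 0.42 as well, but 130 of the 154 ST-like cells of BA10 lay in a cluster that held 2 such cells of A0. Of 83 genes, 5 were at least 2-fold higher, beside 5.43%, and 79 above 0, beside 63.9%.

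AOS without busulfan left nearly every gene within 2-fold. None of the 82 ribosomal protein genes tested was at least 2-fold higher or lower in A10, beside 0.0302% and 0.0453% of all 6617 genes. The median log2 ratio was 0.08 (counting interval 0.07–0.10), with 57 of 82 genes above 0, beside 41.3% of all genes, whose median was -0.03. The highest were Rps28 (391 CPM in A0 and 572 in A10, 0.55), Rps27 (702 and 1001 CPM, 0.51), Rps21 (107 and 151 CPM, 0.49) and Rpl37 (648 and 908 CPM, 0.48). Among the lowest were Rps3a1 (219 and 195 CPM, -0.16), Rpl7 (344 and 309 CPM, -0.15) and Rpl8 (918 and 848 CPM, -0.11). The same 4 genes were highest within SPC-like cells, from 0.42 to 0.50, and within ST-like cells, from 0.51 to 0.59. The medians there were 0.05 and 0.10, with 53 and 56 of 81 genes above 0, beside 37.6% and 35.2% of all genes. At the common UMI limit 61 of 82 were above 0, beside 44.4%.

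Among these genes, those with shorter transcripts had the higher ratios in A10, and also in B0 and BA10 against A0. Over the 81 autosomal genes the log2 ratio for A10 over A0 ranked against transcript length with a Spearman's rho of -0.60, and over 6311 other genes with -0.18. The 28 genes with a transcript under 600 bases, a bound chosen after the values were seen, had a median of 0.24, and the 53 longer ones 0.03. Other genes showed the same order, with medians of 0.16 for 156 short transcripts and -0.03 for 6155 longer ones. The rank correlation over the ribosomal protein genes was -0.61 in SPC-like cells, -0.59 in ST-like cells and -0.59 at the common UMI limit. Against the same control it was -0.33 for B0 (-0.53 at the limit) and -0.25 for BA10 (-0.48 in SPC-like cells), beside 0.07 and -0.16 over the other genes in all cells. These correlations are descriptions over genes of single libraries, and transcript length moved with the difference between A10 and A0 in the other genes, pooled, as well.

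**Figure D5:**
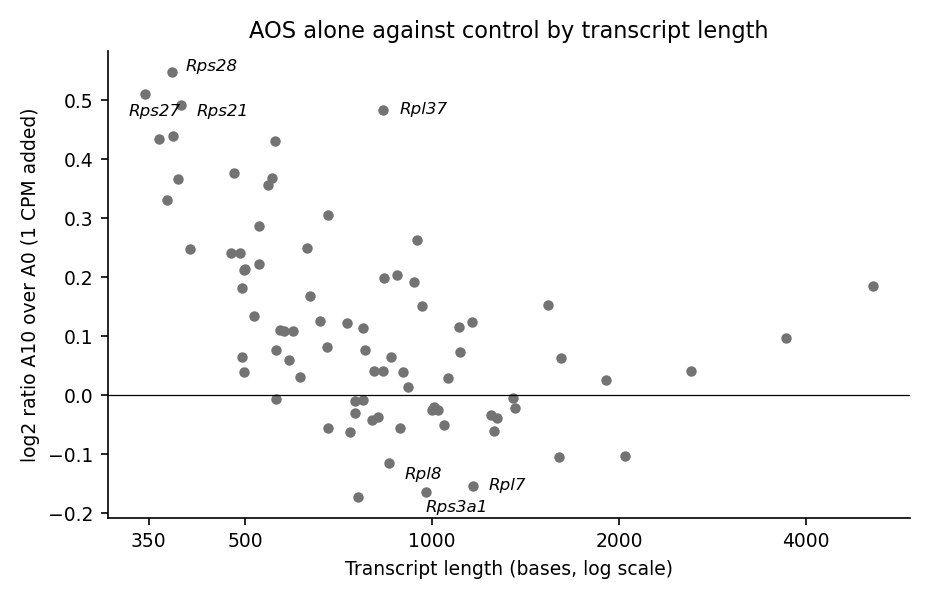
Log2 ratio of A10 over A0 (with 1 CPM added) against transcript length (bases, log axis); each point is 1 of the 81 autosomal ribosomal protein genes at 10 CPM or more, and the named ones are among those with the highest and lowest ratios. Transcripts under 600 bases have a median of 0.24 and longer ones 0.03.

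From SPC-like to ST-like cells most ribosomal protein genes were lower, but their median fell less than that of all genes. In A0 their median log2 ratio was -0.52, against -0.70 over all genes and -1.10 over the mitochondrial ribosome, and 13 of 82 were at least 2-fold lower in ST-like cells, beside 40.4% of all genes. Only 4 were above 0, beside 33.1%. The lowest were Rps19bp1 (56.4 CPM in SPC-like and 5.93 in ST-like cells, -3.05), Rps27a (744 and 113 CPM, -2.70), which is made as a fusion with ubiquitin, Rpl14 (319 and 49.2 CPM, -2.67) and Rps3 (262 and 52.8 CPM, -2.29). The highest were Rpl10 (9.17 and 16.8 CPM, 0.81), Rpl37rt (0.17), Rps27rt (0.08) and Rps20 (0.06). A10 gave a median of -0.49, against -0.71 over all genes, with 12 of 82 at least 2-fold lower, beside 40.2%. BA10 gave -0.47, against -0.53 over all genes, with 13 of 85, beside 33.9%. Rps19bp1, Rps27a and Rps3 were among the 4 lowest in all 3 libraries. A spermatid gene such as Prm1 had a UMI in 100% of SPC-like cells of A0 and A10, at 1860 and 2767 CPM. The part of spermatid RNA in the SPC-like levels was not tested, nor was that of the cluster with near-equal scores for both classes.

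From SPG-like to SPC-like cells of B0 the median was -0.62, with 23 of 85 genes at least 2-fold lower, beside 33.0% of all genes, and 2 at least 2-fold higher, beside 20.0%. The 2 were Rpl10l (36.6 and 107 CPM, 1.53) and Rpl39l (406 and 887 CPM, 1.13). The lowest were Rpl36a (1160 and 82.8 CPM, -3.79), Rpl10 (710 and 141 CPM, -2.32), Rps4x (291 and 71.0 CPM, -2.02) and Rplp2 (4215 and 1120 CPM, -1.91). Leydig-like against SPG-like cells of B0 gave a median of -0.69, with Rps4x (1.72), Rpl39 (1.67) and Rpl10 (1.49) at least 2-fold higher in Leydig-like cells, beside 18.0% of all genes, and 20 lower, beside 36.0%. Rpl39l (-2.93) and Rpl10l (-2.64) were the lowest.

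Genes that work with the ribosome were taken from 4 lists, chosen with earlier results of these data known. For B0 over A0, the 18 elongation factors and other TOP mRNAs had a median of -0.26, with 5 at least 2-fold higher and 1 lower; over all genes these shares were 37.5% and 24.5%. The highest was Vim, a cytoskeletal gene of somatic cells (1.60 CPM in A0 and 139 in B0, 5.76), and the lowest Pabpc1, the poly(A)-binding protein (1637 and 795 CPM, -1.04). Of 32 assembly factors 30 were tested, with a median of 0.60, 10 higher and 1 lower, from Ncl, nucleolin (21.5 and 368 CPM, 4.03), to Wdr12 (326 and 135 CPM, -1.27). Of 14 genes of RNA polymerase I transcription, which makes ribosomal RNA, 9 were tested, with a median of 1.27, 5 higher and 0 lower, from Ubtf (1.27 and 69.6 CPM, 4.96) to Polr1c (-0.71). Rack1 (67.1 and 359 CPM, 2.40) and Fau (1059 and 1763 CPM, 0.74), ribosomal proteins outside the naming rule, were higher in B0. For BA10 over B0 the medians were 0.26 for elongation factors, 0.30 for assembly factors, -0.56 for RNA polymerase I and 0.02 for the mitochondrial ribosome, beside -0.62 for the ribosomal protein genes. At the common UMI limit they were 0.33, 0.040, 0.15 and 0.21, so that the median of RNA polymerase I changed sign, and for B0 over A0 4 of 27 assembly factors and 1 of 7 RNA polymerase I genes were at least 2-fold higher there, beside 12.7% of all genes. For A10 over A0, in all cells, the medians of these lists were -0.06, 0.02, 0.08 and 0.05.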

How the data were processed

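Single-cell RNA-seq of ICR mouse testis gave 4 libraries, 1 per group. The authors counted UMIs, per the labels and the study's methods, with Cell Ranger 2.2.0 on mm10 (10x 3′ chemistry), removed cells with few genes and genes in few cells, and normalized with Seurat. In the deposited table each gene's UMIs were divided by the total of the cell, multiplied by 10000, raised by 1 and put on a natural log scale. UMIs were recovered from them, with 100% of values whole within 0.001. The planned tests assumed CPM, which was computed from these UMIs.

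Cells were clustered in Scanpy 1.11.5 (2000 variable genes with 0 of the 88 among them, 30 principal components, 15 neighbours, Leiden resolution 1; python-igraph 0.11.9; Python 3.11.15), which gave 38 clusters. Names came from listed markers. Clusters led by another class were split once at resolution 0.3, and those led by connective tissue genes were left unnamed; both rules were set after the clusters were seen. Doublets were kept; Scrublet called 8.06% of A0, 8.66% of A10, 0.0859% of B0 (4 cells, so it may not have worked there) and 1.27% of BA10.

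UMIs were summed per library or class and scaled to 1000000. Log2 ratios have 1 CPM added and were taken for genes with at least 10 CPM in the mean of both libraries, and 2-fold was the bound for counts. Each group had 1 sample, so no test was run and no p-value is given. Intervals are exact binomial (Clopper-Pearson, SciPy 1.17.1) or Poisson ones at 95%. The calculation was tested on simulated data. Classes with under 50 cells in a library were not compared. Genes named in the text are the X-linked genes, the paralogs with their parents, the stalk genes and Rpsa, the 4 highest and 4 lowest ratios of each comparison, the 5 highest levels of each library and the highest and lowest gene of each list; Rps6, Rpl29, Rps27a, Rpl14, Rps3 and others named within a class comparison were chosen after their values were seen. Of the genes these rules take, 2 are not reported here. The genes and lists were chosen with earlier results of these data known. Coordinates and transcript lengths are from GENCODE on GRCm38, where all 88 symbols matched, and promoters from RefSeq. Alternatives were another added CPM, no filter, centring, means over cells, the common UMI limit, Scrublet, core genes alone, other clusterings and another order of germ cells.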

Additional observations from a re-analysis of the deposited data

Results flagged for a closer look

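In 3 values AOS went with a different change in busulfan-treated than in untreated mice; with 1 library per group none of these differences was tested. The share of UMIs in the 88 genes was 0.430 percentage points higher in A10 than in A0 and -4.34 points in BA10 against B0, a difference of 4.77 points. The median log2 ratio of the genes was 0.08 for A10 over A0 and -0.62 for BA10 over B0, which differ by 0.70. The share of Rpl39l was -0.08 points in A10 against A0 and 65.7 points in BA10 against B0, a difference of -65.8 points. This share was already 99.6% in A0 and 31.6% in B0, so a rise of that size was possible only with busulfan. At the common UMI limit the values with busulfan were -0.879 points for the share of the 88 genes and -0.044 for the median log2 ratio, and Rpl39l held 91.8% in B0 and 97.4% in BA10. B0 held mostly somatic cells of low depth and BA10 mostly germ cells, and these move with all 3 values.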

How the results depend on the processing

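Of 204 values under another setting, 116 stayed within the spread set for them and 88 moved. The median log2 ratio of the X-linked genes for A10 over A0, whose counting interval held 0, went from 0.034 to -0.063 at the common UMI limit; no other of these values changed sign, though the single-gene ratios of Rpl10l and Rpl39l for B0 over A0 did. Leaving out cells called by Scrublet (28 values) or the filter on low levels (12) moved none of them. In cells at the common UMI limit the share of UMIs in the 88 genes differed by 0.461 points (A10 minus A0), 3.63 (B0 minus A0), -0.879 (BA10 minus B0) and 2.76 (BA10 minus A0); the median log2 ratio was 0.68 for B0 over A0 (X-linked genes 4.47) with 28 genes at least 2-fold higher, and -0.044 for BA10 over B0 (X-linked -1.36) with 0 higher and 8 lower; the share of Rpl10l was 87.7% in A10 and 51.8% in B0, and that of Rpl39l 99.7% in A0, 99.6% in A10 and 91.8% in B0. With core genes alone the shares differed by 0.404, 6.93, -4.26 and 2.67 points in the same order, and the medians were 1.49 (B0 over A0) and -0.70 (BA10 over B0). As means over cells the shares differed by 0.375, 8.24, -5.38 and 2.86 points; the medians were 0.061 (A10 over A0), 1.65 (B0 over A0, 2 genes lower beside 30.2% of all genes), -0.81 (BA10 over B0, X-linked -4.13) and 0.73 (BA10 over A0, X-linked 3.18). Centred on the median of all genes, the medians were 0.11 (A10 over A0), 1.23 (B0 over A0, X-linked 7.19, 1 gene lower beside 29.7%), -0.47 (BA10 over B0, X-linked -4.21) and 0.38 (BA10 over A0, X-linked 2.49, 7 genes higher beside 4.35%). With 10 CPM added the X-linked medians were 5.65, -4.06 and 1.65 for B0 over A0, BA10 over B0 and BA10 over A0. The cause of these shifts was not tested.

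The share of UMIs in the 88 genes within classes also moved. With 1000 variable genes it was 19.4% in SPG-like cells of B0, 5.51%, 5.86%, 8.60% and 7.40% in SPC-like cells of A0, A10, B0 and BA10, 3.91%, 4.34% and 5.42% in ST-like cells of A0, A10 and BA10 and 9.46% in Leydig-like cells of BA10, and in SPC-like cells Rpl10l had 57.2% in B0 and Rpl39l 99.8% in A10 and 92.6% in B0. At resolution 0.5 it was 19.5% in SPG-like cells of B0, 5.51% and 5.91% in SPC-like cells of A0 and A10, 4.02%, 4.46% and 5.38% in ST-like cells of A0, A10 and BA10 and 13.1% and 11.0% in Leydig-like cells of B0 and BA10, and Rpl10l had 93.6% in SPC-like cells of A10. At resolution 2 it was 5.60%, 5.95% and 8.80% in SPC-like cells of A0, A10 and B0, 3.96% and 4.40% in ST-like cells of A0 and A10 and 9.46% in Leydig-like cells of BA10, and in SPC-like cells Rpl10l had 58.0% in B0 and Rpl39l 92.6% in B0 and 98.7% in BA10. With the 88 genes allowed among the variable genes it was 19.3% in SPG-like cells of B0, 5.69%, 6.03% and 12.3% in SPC-like cells of A0, A10 and B0 and 4.01%, 4.46% and 5.45% in ST-like cells of A0, A10 and BA10, and in SPC-like cells Rpl10l had 94.5%, 94.3% and 83.8% in A0, A10 and BA10 and Rpl39l 98.8% in BA10. Along the first principal component, over all libraries, the last bin held 63.0% for Rpl10l and 98.8% for Rpl39l, against 55.6% and 98.2% by pseudotime.

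No paired analysis was possible because each group has 1 library and the groups share fewer than 2 replicate numbers. For the same reason no library was left out. The depth of a cell limits low genes most: at 4214 UMIs per median cell of B0, genes near 1 CPM are seen only in sums over many cells.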
